A study of Rattus norvegicus with 72 samples.

Results

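The p53 apoptosis genes are 9 genes that the tumour suppressor p53 can switch on or that carry out or restrain the death programme it starts. They are Bax, Aen, Pidd1, Phlda3, Fas, Bbc3, Pmaip1, Bcl2l1 and Perp, and every probe set on the array whose platform annotation gives one of these symbols was taken. That gave 13 probe sets with a single symbol, for 7 of the 9 genes, out of 31099 probe sets on the array. Of these, 11 passed the filter on dim probe sets, together with 18048 probe sets in all, and were tested. One further probe set is annotated to both LOC681314 and Bax, no probe set carries Bax alone, and none carries Pmaip1. The shared probe set is described but not counted among the 11.

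The study exposed monolayers of primary rat hepatocytes, liver cells freshly isolated with collagenase, to 8 compounds for 24 h or 72 h and measured RNA on Affymetrix arrays. Its purpose was to set the profiles in this culture beside those in the livers of treated rats, which are not analysed here. Each of the 24 groups had 3 arrays, 72 in all, and the labels call the experiments of a compound independent and biological. The labels give no strain, sex, age or vehicle, so what the control medium held is not known from them.

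The design text names 3 genotoxic carcinogens, which damage DNA. Aflatoxin B1, a mould toxin that binds DNA after activation in the liver, was given at 19 nM, and the dosing protocol writes its name without the number. NNK, the tobacco nitrosamine 4-(methylnitrosamino)-1-(3-pyridyl)-1-butanone, was given at 625 µM, and 2-nitrofluorene, a nitrated polycyclic compound, at 78 µM. The 3 non-genotoxic carcinogens were Wy-14643 (250 µM), piperonyl butoxide (13.4 µM) and methapyrilene (8.5 µM). The 2 compounds named as non-carcinogens were nifedipine (156 µM) and clonidine (277 µM). Aflatoxin B1, Wy-14643 and clonidine shared 1 control group at each time, 2-nitrofluorene, piperonyl butoxide and nifedipine shared another, and NNK and methapyrilene each had a control of their own. Hepatocyte markers were bright throughout: 9 of the 10 listed genes, albumin and transthyretin among the list, were on the array, and their summed signal lay between 23387 and 52220 on the 72 arrays.

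In most cells p53 is held low by MDM2, and DNA damage stabilises it so that it binds its target genes and raises their transcription. Its apoptosis targets act at several steps. The BH3-only protein PUMA (Bbc3) frees the pore-former BAX from guards such as BCL-XL (Bcl2l1), and NOXA (Pmaip1) is another BH3-only protein. FAS carries death signals from outside the cell, PIDD1 assembles a caspase-2 platform and AEN digests nucleic acid. PHLDA3 blocks the survival kinase AKT at the membrane, and PERP is a membrane protein needed for p53-driven death in some cells. Hepatocytes make the enzymes that turn aflatoxin B1 and nitrosamines into forms that bind DNA.

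Promoter windows are shown first, because p53 acts on its target genes through DNA. The 3 genes with the largest log2 differences after 72 h of aflatoxin B1 were taken. Only probe sets with a single symbol were ranked, which leaves out the shared Bax one. The windows of these 3 genes are printed below. They come from RefSeq on the GRCr8 build and run from 250 bases before to 50 after the annotated start, 5′ to 3′ on the gene's own strand. Windows were available for 7 of the 9 members, those of Bax and Bbc3 not being in the table. Capitals mark each match to the p53 half-site, the 10-letter sequence of which p53 binds a tandem pair, searched on both strands. The Phlda3 window lies at chr13:49744753-49745052 on the plus strand, the Aen window at chr1:142224283-142224582 on the plus strand and the Pidd1 window at chr1:205971551-205971850 on the minus strand.
Phlda3: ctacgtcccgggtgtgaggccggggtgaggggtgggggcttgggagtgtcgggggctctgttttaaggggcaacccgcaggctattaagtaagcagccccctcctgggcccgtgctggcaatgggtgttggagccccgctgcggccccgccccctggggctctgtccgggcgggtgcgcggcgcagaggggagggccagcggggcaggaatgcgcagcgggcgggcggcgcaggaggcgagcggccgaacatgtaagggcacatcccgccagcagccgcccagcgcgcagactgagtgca
Aen: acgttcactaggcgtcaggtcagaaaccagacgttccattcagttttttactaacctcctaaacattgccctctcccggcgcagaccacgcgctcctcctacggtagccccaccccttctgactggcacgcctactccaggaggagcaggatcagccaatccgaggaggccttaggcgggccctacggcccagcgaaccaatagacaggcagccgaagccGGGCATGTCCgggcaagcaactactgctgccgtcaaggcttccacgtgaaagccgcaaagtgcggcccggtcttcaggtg
Pidd1: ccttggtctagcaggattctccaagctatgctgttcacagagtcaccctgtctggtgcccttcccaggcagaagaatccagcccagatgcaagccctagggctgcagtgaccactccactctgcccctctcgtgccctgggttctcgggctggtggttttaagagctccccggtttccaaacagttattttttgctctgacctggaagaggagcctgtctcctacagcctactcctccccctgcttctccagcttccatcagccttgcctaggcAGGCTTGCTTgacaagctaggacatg
The Aen window held 1 half-site, GGGCATGTCC, starting at position -30 from the start, and the Pidd1 window held 1, AGGCTTGCTT, at position 24. The Phlda3 window held none, and neither did those of Fas, Perp, Pmaip1 and Bcl2l1. Of all 33469 promoter windows of this length, 7.98% held at least 1 half-site, and 62.6% held the core letters CATG, which can lie inside a half-site, as in Aen. A match is a description of the letters and does not show that p53 binds there.

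Before the results, 10 of the 72 arrays stood apart. Their log2 ratio of 3′ over 5′ beta-actin signal, which is raised where RNA is degraded, lay between 1.84 and 2.71, against 0.36 to 1.11 on the other 62. They were the 8 arrays with D number 3 in their titles, which are the replicate 3 arrays of aflatoxin B1, Wy-14643, clonidine and their control, and aflatoxin B1 replicate 1 at 24 h and replicate 2 at 72 h. The meaning of the D number is not stated. A score of culture time from 3937 probe sets was higher at 72 h than at 24 h by 0.35 to 1.23 in the 23 array pairs of the other D numbers that were not among the 3 control groups used to define the score, but by -0.66 to -0.35 in the 4 pairs of D number 3, so the labelled times of those arrays go against the data. The aflatoxin B1, Wy-14643 and clonidine results rest on these arrays, and their values without them are given too.

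The values are MAS5 signals on a linear scale, and a log2 difference is the mean log2 signal of a compound's 3 arrays minus that of its control at the same time, given with its standard error. A probe set is called where limma's Benjamini-Hochberg adjusted p, over all 18048 probe sets tested, is below 0.05. With aflatoxin B1, 9 of the 11 probe sets, covering all 7 genes, were called higher at 24 h and again 9 at 72 h, and none was called lower. Of all probe sets tested 3.33% were called at 24 h and 4.91% at 72 h, with 1.8% and 2.78% called higher. With NNK, 3 probe sets were called higher at 24 h (0.92% of all probe sets called, 0.421% called higher) and 7 at 72 h (3.32% called, 1.67% called higher), and again none lower. The median log2 difference of the 11 was 1.07 at 24 h and 1.20 at 72 h with aflatoxin B1, beside -0.04 and 0.01 over all probe sets tested, and 0.62 and 0.92 with NNK, beside 0.01 and -0.02. Arrays of bulk RNA cannot tell fewer cells of one kind from less RNA per cell.

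No probe set of the 11 was called with 2-nitrofluorene at 24 h (background 1.13%) or 72 h (0.809%), and its medians were 0.09 and -0.08. None was called with the other 5 compounds either. The background share there was 0.0443% and 7.31% with Wy-14643 at 24 h and 72 h, 0.0887% and 0% with piperonyl butoxide, 0% at both times with methapyrilene, 0.46% and 3.18% with nifedipine, and 0.0166% and 0.0332% with clonidine. By limma's unadjusted p below 0.05, 0 of the 11 passed with 2-nitrofluorene at either time, 1 and 4 with Wy-14643, 0 and 1 with nifedipine, 1 and 2 with clonidine, and 0 at both times with piperonyl butoxide and methapyrilene. The 0 of 11 at 72 h of Wy-14643 stood beside 1320 called probe sets over the whole array, against 886 with aflatoxin B1 at that time. Without the D number 3 arrays the counts stayed at 0 at both times of clonidine and at 24 h of Wy-14643. The 0 at 72 h of Wy-14643 was 1 without those arrays, 0 to 5 on leaving out single arrays (5 without Wy-14643 replicate 1, 2 without control replicate 3) and 4 with the replicate block. The 4 were Phlda3 and both Aen probe sets, higher, and Perp 1372423_at, lower. The 7.31% of all probe sets belongs to the main fit. The shares under these other settings are not given here, so the counts cannot be set against a background.

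**Figure D1:**
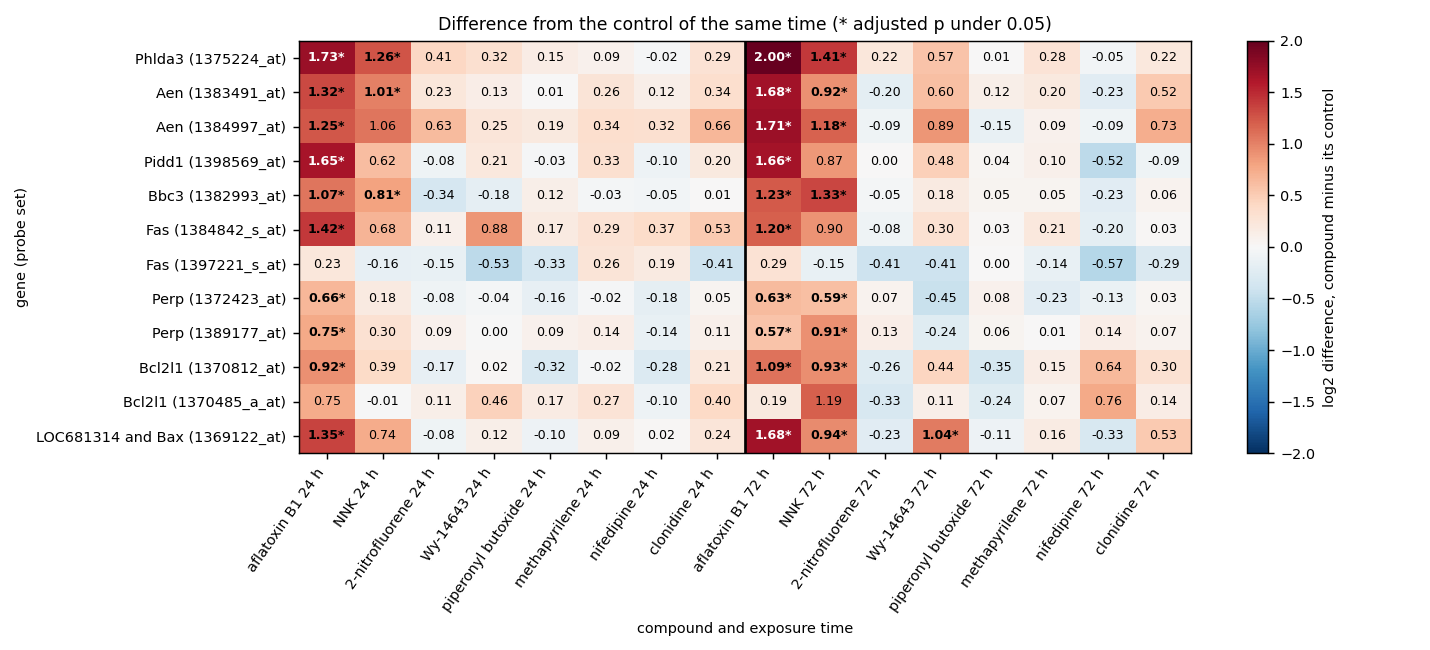
Log2 difference from control of the 11 tested probe sets and of the probe set shared by LOC681314 and Bax (rows) in the 16 comparisons of a compound with its control (columns), with an asterisk where the adjusted p is below 0.05. The asterisks lie in the aflatoxin B1 columns (10 each at 24 h and 72 h with the shared probe set) and the NNK columns (3 at 24 h, 8 at 72 h), with 1 more for the shared probe set at 72 h of Wy-14643.

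The aflatoxin B1 counts depend on the arrays used. Without the D number 3 arrays 6 probe sets were called at 24 h and 9 at 72 h. Dropping the 10 arrays of high actin ratio left aflatoxin B1 replicate 2 alone at 24 h and replicate 1 alone at 72 h. Only effect sizes are therefore given for aflatoxin B1 in that setting. Leaving out single arrays gave 5 to 9 calls at 24 h, the lowest without aflatoxin B1 replicate 3, and 6 to 9 at 72 h, the lowest without control replicate 3 or aflatoxin B1 replicate 2. A fit of only the arrays of aflatoxin B1 and its control had 8 residual degrees of freedom, against 48 in the main fit. It called 1 probe set at 24 h (of 40 overall) and 3 at 72 h (of 63 overall). The reason for the lower counts was not tested.

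The NNK counts moved by leaving out 1 array as well. At 24 h the count of 3 became 1 without control replicate 2 or 3 or without NNK replicate 2 or 3. At 72 h the count of 7 became 3 without control replicate 3 or NNK replicate 1, and 4 without control replicate 2 or NNK replicate 2. With the D number at each time as a replicate block the NNK counts were 4 at 24 h and 10 at 72 h. The number of probe sets called over the whole array rose with that block as well. A fit of only the arrays of NNK and its control added Aen 1384997_at at 24 h (adjusted p = 0.0228). At 72 h it added Pidd1 (0.034), Fas 1384842_s_at (0.0327) and Bcl2l1 1370485_a_at (0.0189). It lost Bcl2l1 1370812_at at 72 h (0.0547).

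Phlda3, whose product is a PH-domain protein that keeps AKT from the membrane, had the largest log2 difference of the 11 probe sets at both times of aflatoxin B1. Its signal was 782, 1055 and 1576 in cells treated with aflatoxin B1 for 24 h, against 262, 408 and 333 in their control. At 72 h it was 1158, 1608 and 908 in treated cells, against 269, 306 and 318 in the control. All treated arrays lay above all control arrays at both times, and the log2 differences were 1.73 ± 0.23 at 24 h (3.32-fold, adjusted p = 6.78e-07) and 2.00 ± 0.23 at 72 h (4.01-fold, adjusted p = 1.71e-08).

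Phlda3 was higher with NNK too. Signals were 951, 1205 and 1214 with NNK at 24 h, against 499, 501 and 405 in its control, and 1457, 1404 and 1071 with NNK at 72 h, against 499, 583 and 404 in its control. The groups did not overlap, with log2 differences of 1.26 ± 0.23 (2.40-fold, adjusted p = 0.00105) and 1.41 ± 0.23 (2.65-fold, adjusted p = 7.34e-05). These 4 Phlda3 calls were kept in all 15 alternative settings run for each. With 2-nitrofluorene the arrays read 518.5, 700.3 and 454 at 24 h, against 441, 460.2 and 346 in its control, and 479.6, 644 and 492 at 72 h, against 402, 530.3 and 448 in its control. Those groups overlapped, and the log2 differences of 0.41 ± 0.23 and 0.22 ± 0.23 did not pass the test (adjusted p = 0.548 and 0.911).

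With Wy-14643 at 72 h Phlda3 read 303, 744 and 379.9, against 269, 306 and 318 in the shared control. One array stood far above the other 2, and the log2 difference of 0.57 ± 0.23 was not called (adjusted p = 0.127), though it was with the replicate block (adjusted p = 0.00665), and without the D number 3 arrays it was 0.73 (adjusted p = 0.0816). The lowest Phlda3 signal of the 6 aflatoxin B1 arrays (782) and of the 6 NNK arrays (951) lay above the 30 arrays of the 5 compounds not named as genotoxic, 287 to 744, and above the 24 control arrays, 262 to 627.

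Aen, which encodes the apoptosis-enhancing nuclease and whose promoter window above carries a half-site, has 2 tested probe sets. On 1383491_at the signal was 379, 451 and 424 with aflatoxin B1 at 24 h, against 175, 163.5 and 162 in its control, and 475, 458 and 453 with aflatoxin B1 at 72 h, against 146, 92.8 and 219.6 in its control. The treated arrays were close to each other and clear of the control, with log2 differences of 1.32 ± 0.25 (2.50-fold, adjusted p = 0.000284) and 1.68 ± 0.25 (3.21-fold, adjusted p = 2.97e-06). With NNK the signal was 358, 413 and 549 at 24 h, against 218, 212 and 214 in its control, and 432, 427 and 369.6 at 72 h, against 236, 211 and 203 in its control. Again the groups were apart, by 1.01 ± 0.25 (adjusted p = 0.0246) and 0.92 ± 0.25 (adjusted p = 0.0223) on the log2 scale.

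These 2 NNK calls of Aen each turned on single arrays. Leaving out any control replicate or NNK replicate 2 or 3 at 24 h gave log2 differences of 0.84 to 1.05 and adjusted p from 0.0814 to 0.338. At 72 h, leaving out control replicate 2 or 3 or NNK replicate 1 or 2 gave 0.87 to 0.90 and adjusted p from 0.0688 to 0.114. With 2-nitrofluorene the Aen signal was 171, 267 and 172 at 24 h, against 188.5, 153 and 168 in its control, and 132, 159 and 141 at 72 h, against 132, 191 and 176 in its control. Those groups overlapped at both times, with log2 differences of 0.23 ± 0.25 and -0.20 ± 0.25 that were not called.

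The second Aen probe set (1384997_at) varied more between arrays. It read 94.6, 194 and 146 with aflatoxin B1 at 24 h, against 79.8, 98.9 and 25.6 in its control, so the groups overlapped, and the call (log2 difference 1.25 ± 0.33, adjusted p = 0.0179) rested in part on the low control array. Without control replicate 3, aflatoxin B1 replicate 2 or aflatoxin B1 replicate 3 the difference was 0.65, 1.00 and 1.21, and the adjusted p was 0.278, 0.125 and 0.0859. Without the D number 3 arrays it was 0.61 (adjusted p = 0.328). On dropping the arrays of high actin ratio, which left aflatoxin B1 replicate 2 alone, it was 1.13. At 72 h it read 171, 134 and 123 with aflatoxin B1, against 57.2, 37.1 and 37.7 in its control, which was a clear gap of 1.71 ± 0.33 (adjusted p = 0.000286).

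With NNK the second Aen probe set read 136, 179.7 and 212.5 at 24 h, against 91.4, 76.4 and 81.0 in its control, and 226, 234 and 177 at 72 h, against 93.2, 102 and 84.0 in its control. The groups were apart at both times. The log2 difference was 1.06 ± 0.33 at 24 h, not called (adjusted p = 0.116, and 0.0117 with the replicate block), and 1.18 ± 0.33 at 72 h, called (adjusted p = 0.0282). The 72 h call was lost without any 1 of the control arrays or without NNK replicate 1 or 2 (adjusted p from 0.0528 to 0.139).

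Pidd1 encodes the death-domain protein that joins CRADD and caspase-2 into the PIDDosome, and its promoter window carries the other half-site shown. Its signal was 81.3, 68.9 and 120.0 with aflatoxin B1 at 24 h, against 20.5, 25.4 and 41.6 in its control, and 66.0, 167 and 87.1 with aflatoxin B1 at 72 h, against 23.5, 27.3 and 47.4 in its control. Every treated array was above every control array, by a mean log2 difference of 1.65 ± 0.28 at 24 h (3.14-fold, adjusted p = 8.57e-05) and 1.66 ± 0.28 at 72 h (3.16-fold, adjusted p = 5.36e-05). With NNK the arrays read 44.3, 78.3 and 59.7 at 24 h, against 40.8, 43.9 and 32.2 in its control, and 92.7, 78.4 and 63.3 at 72 h, against 44.6, 43.7 and 38.5 in its control. Although they did not overlap, the log2 differences of 0.62 ± 0.28 and 0.87 ± 0.28 did not pass the test (adjusted p = 0.49 and 0.0774), and with the replicate block the second did (adjusted p = 0.00603). With 2-nitrofluorene the differences were -0.08 and 0.00.

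Fas encodes the death receptor of the same name. On 1384842_s_at the signal was 249, 480.5 and 384 with aflatoxin B1 at 24 h, against 253, 202 and 46.9 in its control, and 396, 274 and 234 with aflatoxin B1 at 72 h, against 175, 139 and 86.6 in its control. The groups overlapped at 24 h through 1 low treated array and were apart at 72 h. The log2 differences of 1.42 ± 0.37 (2.68-fold, adjusted p = 0.0163) and 1.20 ± 0.37 (2.29-fold, adjusted p = 0.0435) were called.

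Both Fas calls turned on single arrays. At 24 h the difference was 0.66 (adjusted p = 0.302) without control replicate 3. It was 1.21 (0.0984) without aflatoxin B1 replicate 2, 1.37 (0.0831) without aflatoxin B1 replicate 3 and 0.61 (0.289) without the D number 3 arrays. On dropping the arrays of high actin ratio, which left aflatoxin B1 replicate 2 alone, the difference was 1.09. At 72 h it was lost without control replicate 2 or 3 or aflatoxin B1 replicate 1 or 2 (differences 0.91 to 1.26, adjusted p from 0.108 to 0.163), and also when the dim probe sets were kept in (adjusted p = 0.0698). NNK arrays read 281, 307 and 340.5 at 24 h, against 238, 153 and 196 in their control, and 296, 402 and 418.5 at 72 h, against 138.5, 226 and 245 in their control. The groups were apart, but the log2 differences of 0.68 ± 0.37 and 0.90 ± 0.37 were not called (adjusted p = 0.623 and 0.188, the second 0.0298 with the replicate block).

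The other Fas probe sets do not show the same. The second tested one (1397221_s_at) read between 6.86 and 44.5 over the 72 arrays and differed by 0.23 ± 0.43 at 24 h and 0.29 ± 0.43 at 72 h with aflatoxin B1, without a call. The third (1369900_at) was at the floor of the scale on 44 of 72 arrays, with a highest value of 9.46, and was not tested. Fas was thus called on 1 of its 3 probe sets.

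**Figure D2:**
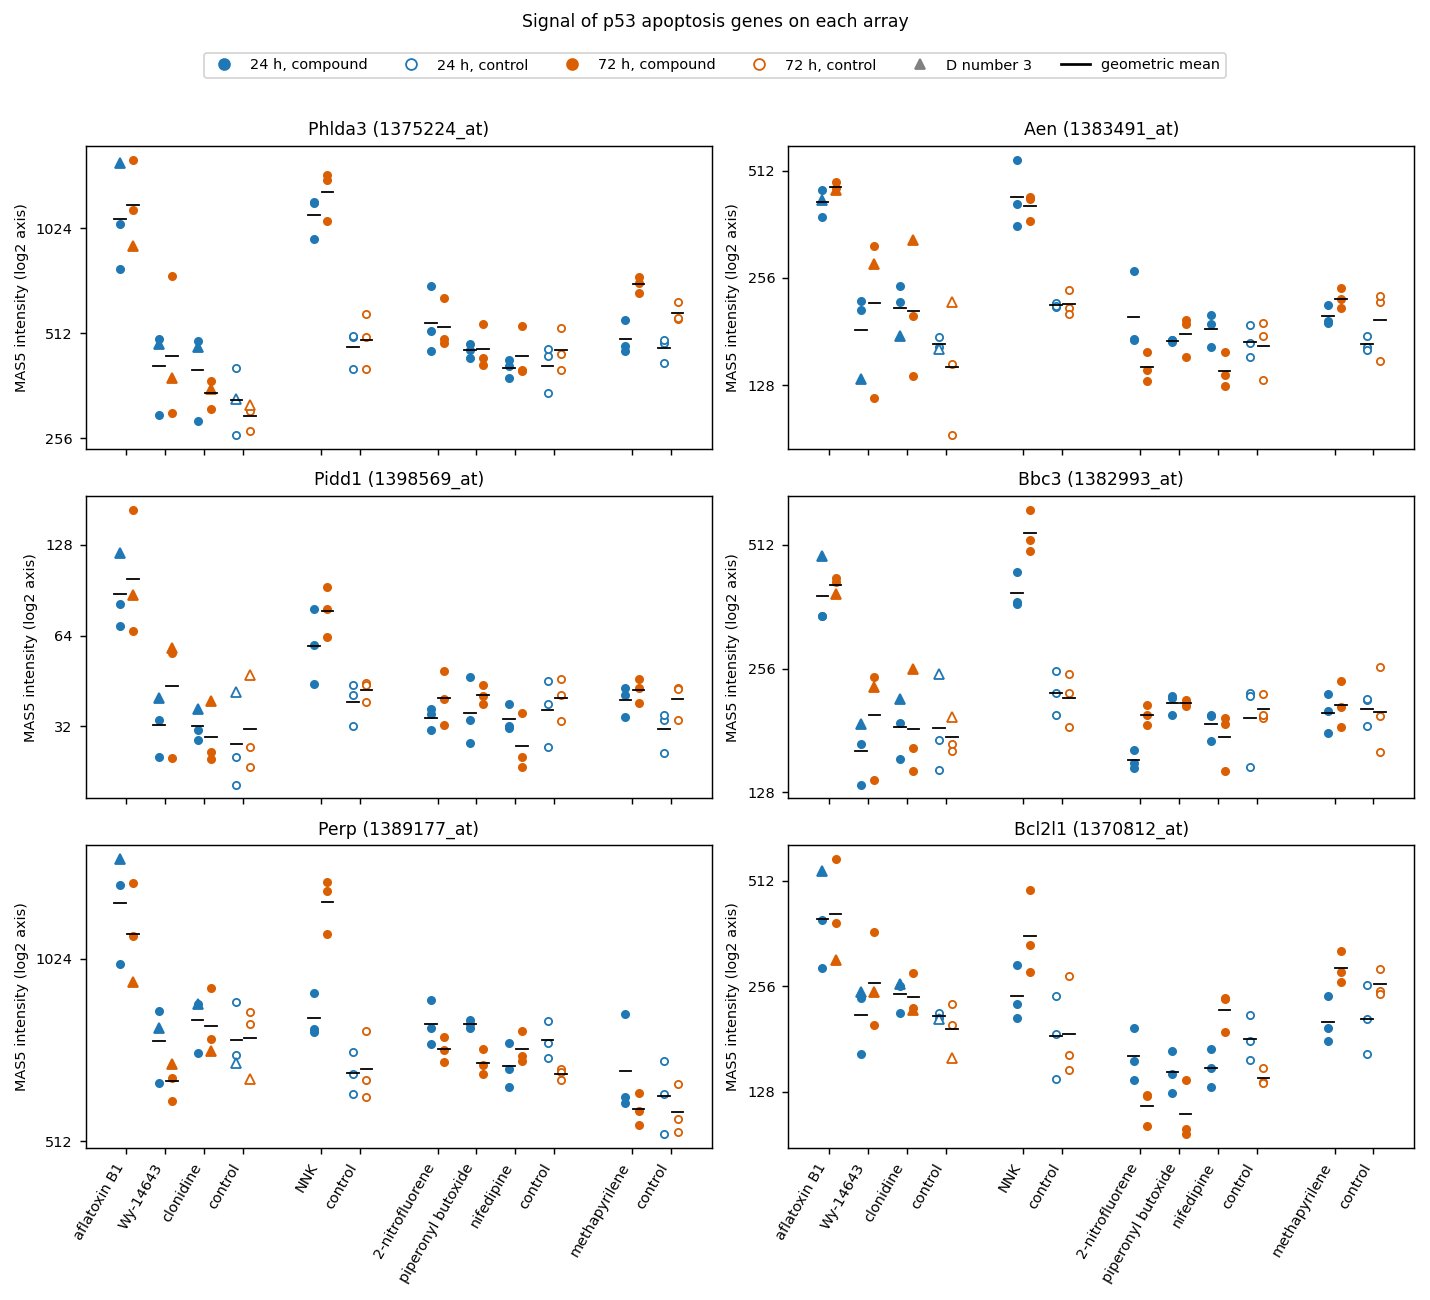
MAS5 signal (log2 axis) on every array of each compound and of its control for Phlda3, Aen (1383491_at), Pidd1, Bbc3, Perp (1389177_at) and Bcl2l1 (1370812_at), with filled points for compounds, open points for controls, blue for 24 h, orange for 72 h, triangles for the D number 3 arrays and a line at each geometric mean. The aflatoxin B1 and NNK points stand above their controls in Phlda3, Aen and Bbc3 at both times, whereas the 2-nitrofluorene points lie among or below theirs in Bbc3. The brightest tested probe set of each gene is shown, except for Perp. Of Perp the dimmer one was chosen after its result was seen, because its 72 h NNK call held in all settings.

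Bbc3 encodes PUMA, the BH3-only protein that ties up the anti-apoptotic BCL2 proteins. Its signal was 343, 344 and 480.3 with aflatoxin B1 at 24 h, against 145, 172 and 249 in its control, and 415, 424 and 389 with aflatoxin B1 at 72 h, against 168, 161 and 195 in its control. With NNK it was 368, 371 and 440.4 at 24 h, against 253, 197 and 224 in its control, and 526, 623 and 495 at 72 h, against 248, 223 and 185 in its control. In each of these the treated arrays lay wholly above the control arrays. The log2 differences were 1.07 ± 0.19 (2.09-fold, adjusted p = 0.000183) and 1.23 ± 0.19 (2.35-fold, adjusted p = 1.01e-05) with aflatoxin B1, and 0.81 ± 0.19 (1.75-fold, adjusted p = 0.0198) and 1.33 ± 0.19 (2.51-fold, adjusted p = 1.14e-05) with NNK.

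The 24 h NNK call of Bbc3 was lost without control replicate 2 or 3 or NNK replicate 2 or 3 (differences 0.72 to 0.85, adjusted p from 0.0775 to 0.218). With 2-nitrofluorene Bbc3 read 163, 147 and 151 at 24 h, against 224, 148 and 219.9 in its control, and 187, 209 and 197 at 72 h, against 194, 222 and 197 in its control. The groups overlapped, at log2 differences of -0.34 ± 0.19 and -0.05 ± 0.19, without a call. The lowest aflatoxin B1 array (343) and the lowest NNK array (368) lay above the 30 arrays of the other 5 compounds, 134 to 255, and above the 24 control arrays, 145 to 259.

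The probe set shared by LOC681314 and Bax (1369122_at) cannot be given to either gene. Bax encodes the protein that forms pores in the mitochondrial outer membrane. Its signal was 827, 659.8 and 1062 with aflatoxin B1 at 24 h, against 263, 289 and 463 in its control, and 787, 1110.0 and 869 with aflatoxin B1 at 72 h, against 289, 187 and 425 in its control. The groups were apart, at log2 differences of 1.35 ± 0.26 (2.54-fold, adjusted p = 0.000433) and 1.68 ± 0.26 (3.21-fold, adjusted p = 7.17e-06). In a fit of the aflatoxin B1 set alone neither was called (adjusted p = 0.199 and 0.0559). With NNK it read 395, 467 and 495 at 24 h, against 329, 237 and 251 in its control, and 689, 585 and 491 at 72 h, against 334, 303 and 274 in its control. These differed by 0.74 ± 0.26 (adjusted p = 0.213, and 0.023 with the replicate block) and 0.94 ± 0.26 (1.92-fold, adjusted p = 0.0255), and the 72 h call was lost without control replicate 2 or 3 or NNK replicate 1 or 2 (adjusted p from 0.0674 to 0.164).

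The shared probe set was also called with Wy-14643 at 72 h. Its arrays read 319, 747 and 843, against 289, 187 and 425 in the shared control, so the groups overlapped at a log2 difference of 1.04 ± 0.26 (2.06-fold, adjusted p = 0.00618). Without the D number 3 arrays the difference was 1.07 (adjusted p = 0.00197). The call was lost without control replicate 2 (0.74, adjusted p = 0.125), Wy-14643 replicate 2 (0.87, 0.101) or Wy-14643 replicate 3 (0.78, 0.0744), and in a fit of that set alone (adjusted p = 0.482). The 2-nitrofluorene differences were -0.08 and -0.23.

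Bcl2l1 encodes BCL-XL, which holds BAX in check, and by splicing a short form that does the reverse. On 1370812_at the signal was 289, 396 and 545 with aflatoxin B1 at 24 h, against 215, 208 and 207 in its control, and 589, 387 and 305 with aflatoxin B1 at 72 h, against 228, 199 and 159 in its control. The treated arrays were spread out but clear of the control, with log2 differences of 0.92 ± 0.23 (1.89-fold, adjusted p = 0.0137) and 1.09 ± 0.23 (2.13-fold, adjusted p = 0.00149). The 24 h call was lost without aflatoxin B1 replicate 3 (0.69, adjusted p = 0.215) and without the D number 3 arrays (0.68, 0.162). On dropping the arrays of high actin ratio, which left aflatoxin B1 replicate 2 alone, the 24 h difference was 0.91.

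With NNK, Bcl2l1 read 227, 208 and 294 at 24 h, against 239.6, 139 and 187 in its control, which overlap (log2 difference 0.39 ± 0.23, adjusted p = 0.691). At 72 h it read 481, 335 and 282, against 273.5, 162.5 and 147.5 in its control. That gap of 0.93 ± 0.23 (1.91-fold, adjusted p = 0.0137) was called, and was lost without control replicate 2 or 3 or NNK replicate 1 (0.71 to 0.83, adjusted p from 0.0782 to 0.176). Nifedipine at 72 h gave 238, 189 and 235, against 136, 149.5 and 135.5 in its control, apart by 0.64 ± 0.23, which was not called (adjusted p = 0.115) but was with the replicate block (adjusted p = 0.0339) and in a fit of that set alone (0.0169).

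A second Bcl2l1 probe set (1370485_a_at) was not called with any compound. It differed by 0.75 ± 0.54 and 0.19 ± 0.54 with aflatoxin B1 and by -0.01 ± 0.54 and 1.19 ± 0.54 with NNK. On dropping the arrays of high actin ratio, which left aflatoxin B1 replicate 1 alone at 72 h, the difference there was 1.42. This probe set ran from 16.8 to 100.4 over the 3 aflatoxin B1 arrays at 72 h, with a median of 21.0. At 72 h of NNK its arrays, 127, 148 and 109.5, lay above the control's 72.1, 65.5 and 36.9 (adjusted p = 0.259, and 0.0101 with the replicate block). The remaining Bcl2l1 probe set (1369180_at) reached 14.0 on its brightest array and was not tested. The annotation used here does not say which splice form each probe set detects.

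Perp encodes a tetraspan membrane protein of cell junctions that p53 induces. It has 2 tested probe sets. On 1389177_at the signal was 1002, 1356 and 1492 with aflatoxin B1 at 24 h, against 709.8, 868.5 and 689.9 in its control, and 1114, 1361 and 935 with aflatoxin B1 at 72 h, against 800.2, 838 and 648.5 in its control. On 1372423_at it was 939, 1209 and 1643 with aflatoxin B1 at 24 h, against 747, 809 and 777 in its control, and 1415, 1362 and 968 with aflatoxin B1 at 72 h, against 881, 905 and 628 in its control. All treated arrays were above all control arrays, but by less than in the genes above. The log2 differences were 0.75 ± 0.14 (1.68-fold, adjusted p = 0.000204) and 0.57 ± 0.14 (1.48-fold, adjusted p = 0.00561) on the first and 0.66 ± 0.15 (1.58-fold, adjusted p = 0.00529) and 0.63 ± 0.15 (1.55-fold, adjusted p = 0.006) on the second.

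Perp under NNK was called at 72 h and not at 24 h. On 1389177_at it read 775, 783 and 897.5 with NNK at 24 h, against 719.9, 612 and 661 in its control, and 1325, 1367 and 1122 with NNK at 72 h, against 779, 646 and 605 in its control. The first difference was 0.30 ± 0.14 (adjusted p = 0.474) and the second 0.91 ± 0.14 (1.88-fold, adjusted p = 1.65e-05). On 1372423_at the arrays read 897, 769 and 920.0 with NNK at 24 h, against 848, 734 and 707 in its control, and 1303, 1389 and 1061 with NNK at 72 h, against 880.0, 855 and 743 in its control, for log2 differences of 0.18 ± 0.15 (adjusted p = 0.857) and 0.59 ± 0.15 (1.51-fold, adjusted p = 0.0162). The change of the NNK difference between the times on 1389177_at, 0.61 ± 0.19, had an unadjusted p of 0.00256 and an adjusted p of 0.561 in limma, and an adjusted p of 0.0277 with the replicate block.

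Several Perp calls turned on single arrays. On 1372423_at the 24 h aflatoxin B1 call was lost without aflatoxin B1 replicate 3 (0.45, adjusted p = 0.177), the 72 h one without control replicate 3 (0.46, 0.0744) or aflatoxin B1 replicate 2 (0.56, 0.0975), and the 72 h NNK one without control replicate 3 or NNK replicate 1 or 2 (0.51 to 0.56, adjusted p from 0.0902 to 0.136). On 1389177_at the 72 h aflatoxin B1 call was lost without control replicate 3 (0.46, 0.0528) and without aflatoxin B1 replicate 2 (0.43, 0.192). On dropping the arrays of high actin ratio, which left aflatoxin B1 replicate 1 alone, that difference was 0.44. With Wy-14643 at 72 h 1372423_at read 711, 621 and 445, against 881, 905 and 628 in its control. That was a log2 difference of -0.45 ± 0.15 short of the threshold (adjusted p = 0.06), past it without the D number 3 arrays (-0.43, adjusted p = 0.0389) and with the replicate block (adjusted p = 0.000343), and the other Perp probe set differed by -0.24 ± 0.14 (adjusted p = 0.329).

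Without the D number 3 arrays the aflatoxin B1 log2 differences at 24 h and 72 h were 1.48 and 2.25 for Phlda3, 1.29 and 2.00 for Aen 1383491_at, 1.71 and 2.05 for Pidd1 and 1.12 and 1.35 for Bbc3. They were 0.57 and 0.59 for Perp 1389177_at, 0.45 and 0.64 for Perp 1372423_at and 1.42 and 2.01 for the probe set shared by LOC681314 and Bax. All of these were called (highest adjusted p 0.0456). At 72 h the second Aen probe set (1.72), Fas 1384842_s_at (1.08) and Bcl2l1 1370812_at (1.17) were called as well. On dropping the 10 arrays of high actin ratio, aflatoxin B1 kept replicate 2 alone at 24 h and replicate 1 alone at 72 h. The differences were then 1.69 and 2.01 for Phlda3, 1.42 and 2.03 for Aen 1383491_at and 1.60 and 1.38 for Pidd1. They were 1.13 and 1.33 for Bbc3, 0.64 and 0.66 for Perp 1372423_at and 1.26 and 1.76 for the shared probe set.

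**Figure D3:**
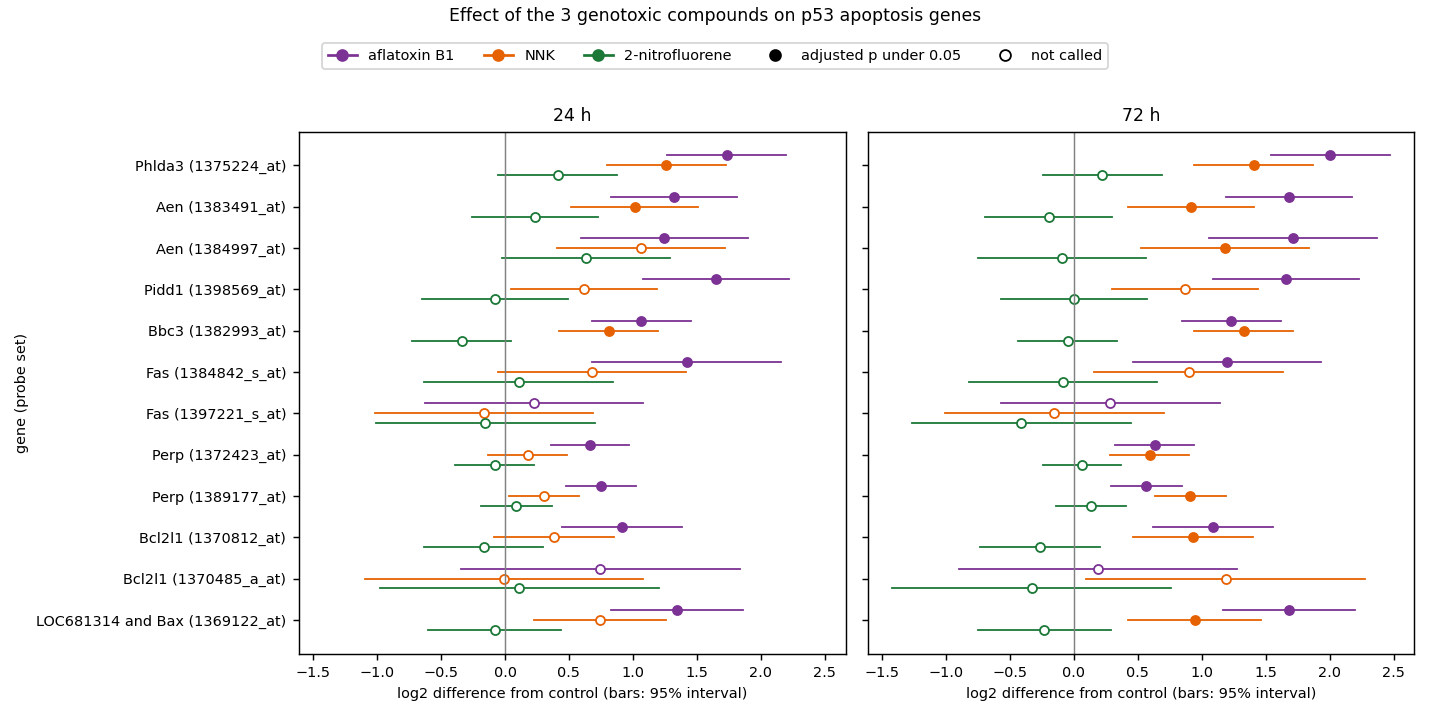
Log2 difference from control with its 95% interval for the 11 tested probe sets and the shared probe set, with aflatoxin B1, NNK and 2-nitrofluorene at 24 h and 72 h on 1 axis, filled where called. Aflatoxin B1 lies highest in most rows, NNK overlaps it widely, and the 2-nitrofluorene intervals all include 0.

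The arrays of the whole study give the order of the compounds. The 8 compounds were ordered by log2 difference for each of the 11 probe sets. Aflatoxin B1 and NNK took the first 2 places in 8 probe sets at 24 h and 9 at 72 h. Aflatoxin B1 was first in 10 and 8, and NNK in 0 and 3. The share of all probe sets with these orders is not given here, so these counts cannot be set against a background. Over both times the lowest of the 6 aflatoxin B1 arrays was above the highest of all 24 control arrays in 7 of the 11 probe sets (0.964% of all probe sets tested), and above the highest of the 30 arrays of the 5 other compounds in 6 (0.798% of all). For NNK these counts were 4 (0.477% of all) and 3 (0.233%), and for 2-nitrofluorene 0 (0.792%) and 0 (0.0222%). The treated and control arrays of the same set did not overlap, with the treated ones higher, in 7 and 9 of the 11 with aflatoxin B1 (background 5.93% and 6.6%), in 7 and 10 with NNK (11.4% and 13.3%), and in 1 and 1 with 2-nitrofluorene (10.6% and 8.74%). The single one at 24 h of 2-nitrofluorene was Aen 1384997_at, at a log2 difference of 0.63 ± 0.33 (adjusted p = 0.487).

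Whether the 3 genotoxic compounds differ from each other was tested on their differences from control, at doses that were not matched. Aflatoxin B1 minus 2-nitrofluorene was called for 3 of the 11 at 24 h, all higher with aflatoxin B1 (1.58% of all probe sets called, 0.754% called higher): Bbc3 by 1.40 ± 0.27 (adjusted p = 0.00186), Pidd1 by 1.73 ± 0.40 (adjusted p = 0.0127) and Phlda3 by 1.32 ± 0.33 (adjusted p = 0.0221). The Phlda3 call was lost without the D number 3 arrays (1.07, adjusted p = 0.0964), which left 2. At 72 h 6 were called (3.1% of all called, 1.69% called higher): Phlda3 by 1.78 ± 0.33 (adjusted p = 0.000515), Aen by 1.88 ± 0.35 (0.000562) and 1.80 ± 0.46 (0.0159), Bbc3 by 1.28 ± 0.27 (0.003), Pidd1 by 1.66 ± 0.40 (0.0105) and Bcl2l1 by 1.35 ± 0.33 (0.0111). With the replicate block 8 were called at 24 h and 9 at 72 h, and without the D number 3 arrays 7 at 72 h. The shares of all probe sets above belong to the main fit, and those under these settings are not given here. With the replicate block the number called over the whole array also rose with aflatoxin B1 and with NNK.

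NNK minus 2-nitrofluorene was called for Bbc3 at 24 h (1.15 ± 0.27, adjusted p = 0.036, where 0.36% of all were called and 0.0665% called higher), and not when the dim probe sets were kept in. At 72 h it was called for Bbc3 (1.37 ± 0.27, adjusted p = 0.00296) and Perp 1389177_at (0.78 ± 0.19, adjusted p = 0.0255), beside 0.97% of all called and 0.388% called higher. Phlda3 (1.18 ± 0.33) and Bcl2l1 (1.19 ± 0.33) fell just short at 72 h with adjusted p of 0.0598 and 0.06. The count of 2 at 72 h was 8 with the replicate block, 5 without the D number 3 arrays, which belong to neither compound's set and enter through the pooled spread alone, and 8 on dropping the arrays of high actin ratio. Here too the shares of all probe sets belong to the main fit, and those under the other settings are not given.

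Aflatoxin B1 minus NNK was called for 0 of the 11 at 24 h (background 0.0166%) and at 72 h (0%), with 3 and 1 at an unadjusted p below 0.05 in limma, and for 0 at each time without the D number 3 arrays. The intervals leave room for sizeable differences. For Phlda3 the difference was 0.47 (95% interval -0.19 to 1.13) at 24 h and 0.60 (-0.06 to 1.25) at 72 h, for Pidd1 1.04 (0.23 to 1.84, adjusted p = 0.632) and 0.79 (-0.02 to 1.60), and for Bbc3 0.26 (-0.29 to 0.80) and -0.10 (-0.64 to 0.45).

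The mean difference of the 3 genotoxic compounds minus that of the other 5 was called for 6 of the 11 at 24 h (2.06% of all called, 1.16% called higher) and 7 at 72 h (4.7% and 2.72%), all higher with the genotoxic compounds. It uses the same arrays as the comparisons above, and the counts were 6 and 8 without the D number 3 arrays. Phlda3 was 0.97 ± 0.14 at 24 h (adjusted p = 2.26e-06) and 1.01 ± 0.14 at 72 h (5.94e-07), Bbc3 0.54 (0.00236) and 0.81 (1.1e-06), and Pidd1 0.61 (0.0363) and 0.84 (0.000619). For Aen 1383491_at it was 0.68 (0.00252) and 0.56 (0.0124), for Aen 1384997_at 0.64 at 72 h (0.0392), for Perp 1372423_at 0.32 (0.0397) and 0.57 (1.4e-05), and for Perp 1389177_at 0.34 (0.00828) and 0.53 (6.61e-06). With 2-nitrofluorene by itself none of the 11 was called.

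No member was called for a dependence on exposure time in the main fit. The 72 h minus 24 h change of the difference from control was called for 0 of the 11 in all 8 compounds, beside a background of 0% to 0.116% of all probe sets (0.0277% with NNK, 0.00554% with 2-nitrofluorene and 0.116% with nifedipine), with 1 in NNK and 1 in nifedipine at an unadjusted p below 0.05 in limma. In aflatoxin B1, Wy-14643 and clonidine these tests use the D number 3 arrays, whose labelled times go against the data. Without those arrays the counts were again 0. With the replicate block, however, the NNK change of Perp 1389177_at was called, as given above. In the controls, 72 h minus 24 h gave 0 of 11 calls while 15.9% of all probe sets tested were called, and the members' log2 differences lay between -0.06 and 0.24 (lowest adjusted p 0.403, 0 at an unadjusted p below 0.05), and without the D number 3 arrays the count was also 0. The NNK control minus the control of the 2-nitrofluorene set, whose arrays carry the same D numbers, gave 0 of 11 calls at each time (background 0% at both), with log2 differences from -0.18 to 0.47 at 24 h and from -0.28 to 0.42 at 72 h.

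The rest of the pathway was looked at through 4 lists, taken 1 probe set per gene. Of p53's feedback and arrest targets 17 of 25 were tested. With aflatoxin B1 8 rose and 1 fell at 24 h and 8 rose at 72 h, with NNK 6 and 7 rose, and with 2-nitrofluorene none was called. Of all probe sets tested, 1.8% and 2.78% were called higher with aflatoxin B1 and 0.421% and 1.67% with NNK. In either direction 3.33% were called at 24 h of aflatoxin B1, and 1.13% and 0.809% with 2-nitrofluorene. The list's median log2 differences were 0.72 and 0.72 with aflatoxin B1, 0.81 and 0.53 with NNK and 0.00 and -0.05 with 2-nitrofluorene, beside the medians over all probe sets given above and -0.04 and -0.07 with 2-nitrofluorene. Mdm2, which marks p53 for destruction, was higher by 2.08 ± 0.29 and 2.58 ± 0.29 with aflatoxin B1 and by 1.63 ± 0.29 and 1.90 ± 0.29 with NNK. Cdkn1a, the cell cycle inhibitor p21, was higher by 1.45 ± 0.21 and 1.36 ± 0.21 with aflatoxin B1 and by 1.01 ± 0.21 and 1.81 ± 0.21 with NNK. Gdf15, a secreted stress hormone, was higher by 2.73 ± 0.46 and 2.67 ± 0.46 with aflatoxin B1 and by 2.69 ± 0.46 with NNK at 72 h. Trim32, a ubiquitin ligase and the gene that fell, was lower at 24 h of aflatoxin B1 (-0.83 ± 0.19, adjusted p = 0.00658), and was picked out after its value was seen.

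The apoptosis machinery outside the members was followed through 3 lists. Together 1 of their 33 tested genes was called at 24 h of aflatoxin B1, a share of 3.03% beside 3.33% of all probe sets, and 0 of 33 at 72 h and at both times of NNK and 2-nitrofluorene, beside background shares of 4.91%, 0.92%, 3.32%, 1.13% and 0.809%. Of the other BCL2 family genes 11 of 15 were tested and none was called with aflatoxin B1, NNK or 2-nitrofluorene, at medians of -0.07 and 0.09, 0.06 and 0.02, and -0.22 and -0.15. Of the death receptors and adaptors 10 of 12 were tested, Cradd and Casp2 being on that list beside Fas's adaptor Fadd, and none was called with any of the 8 compounds. Of the apoptosome, caspase and inhibitor genes 12 of 16 were tested, and the only call in the 16 comparisons was Birc2, an inhibitor of apoptosis, at 24 h of aflatoxin B1 (0.46 ± 0.13, adjusted p = 0.0331). Calls outside the genotoxic compounds came from Bnip3 and Bnip3l, mitochondrial BCL2 relatives that act in mitophagy and hypoxia: Bnip3 was higher at 72 h of nifedipine (1.53 ± 0.31, adjusted p = 0.00196) and of Wy-14643 (0.97 ± 0.31, 0.0416), and Bnip3l at 24 h and 72 h of nifedipine (0.82 ± 0.16, 0.00614, and 0.75 ± 0.16, 0.00463). Hrk, a BH3-only gene, was lower at 72 h of Wy-14643 (-1.16 ± 0.32, adjusted p = 0.015). The calls at 72 h of Wy-14643 were 2 of the 33 genes, a share of 6.06%, below the 7.31% of all probe sets called there. With nifedipine they were 1 of 33 (3.03%) at 24 h and 2 of 33 (6.06%) at 72 h, beside 0.46% and 3.18% of all.

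**Figure D4:**
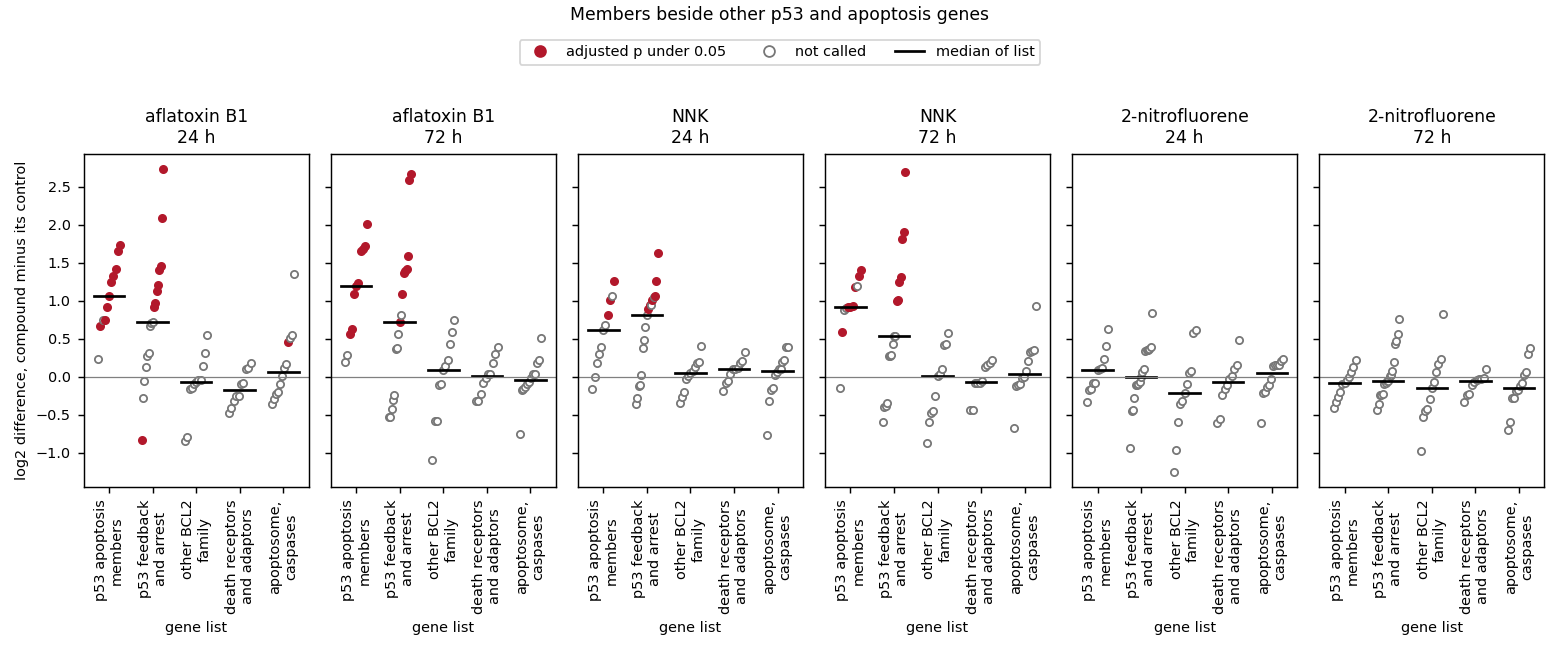
Log2 difference from control of each tested gene of the members (11 probe sets) and of the 4 lists, for aflatoxin B1, NNK and 2-nitrofluorene at 24 h and 72 h, with called points in red and a line at the median. Called points stand among the members and the feedback and arrest genes with aflatoxin B1 and NNK, while the BCL2 family, the death receptors and the caspases hold 1 called point, Birc2 at 24 h of aflatoxin B1.

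Markers of other liver cells were followed on the same arrays. Macrophage markers, 12 of 16 tested, were not called with aflatoxin B1 but had positive log2 differences in 11 of 12 at both times, with medians of 0.85 and 1.07. Their summed signal ran from 1512 to 3088 with aflatoxin B1 at 24 h, against 694 to 1775 in its control, and from 1775 to 2462 with aflatoxin B1 at 72 h, against 806 to 1537 in its control. With NNK 3 and 7 of the 12 were positive, and the sums overlapped: 1028 to 1917 with NNK at 24 h, against 1215 to 2198 in its control, and 1043 to 2305 with NNK at 72 h, against 985 to 2361 in its control. With Wy-14643 at 72 h 3 of the 12 were called lower (C1qb, C1qc and Ptprc, median of the 12 -1.52), the sums running from 482 to 880, against 806 to 1537 in its control. With nifedipine at 72 h 3 were called lower too (C1qa, Mrc1 and Cd163, median -1.68), at sums of 539 to 1144, against 973 to 2097 in its control. Of all probe sets tested, 7.31% were called at 72 h of Wy-14643 and 3.18% at 72 h of nifedipine. With 2-nitrofluorene none was called, but 1 of 12 was positive at each time (medians -0.61 and -1.07), at sums of 877 to 1466 at 24 h, against 1244 to 2141 in its control, and 572 to 1277 at 72 h, against 973 to 2097 in its control. The part of macrophages in the members' differences was not tested.

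Of the stellate cell and fibroblast markers 9 of 10 were tested, and Vim, the filament protein vimentin, was the 1 called. It was lower at 24 h (-1.58 ± 0.42, adjusted p = 0.0191) and 72 h (-1.83 ± 0.42, adjusted p = 0.00339) of aflatoxin B1 and at 72 h of Wy-14643 (-1.90 ± 0.42, adjusted p = 0.00207), while 6 and 7 of the 9 markers were positive with aflatoxin B1 (medians 0.25 and 0.40). The summed signal of the list was 635 to 1659 with aflatoxin B1 at 24 h, against 1414 to 3100 in its control, and 799 to 2942 with aflatoxin B1 at 72 h, against 1938 to 3924 in its control. With NNK the sums were 1358 to 1876 at 24 h, against 1873 to 2217 in its control, and 1369 to 3397 at 72 h, against 2636 to 3427 in its control, and none of the 9 was called. The hepatocyte markers Ttr (-0.59 ± 0.16, adjusted p = 0.0157) and Apoa1 (-0.98 ± 0.23, adjusted p = 0.0049) were lower at 72 h of Wy-14643, and no hepatocyte marker was called with any other compound. Their part in the members' differences was not tested. Of the endothelial and bile duct markers 6 of 10 and 4 of 10 were tested, and none was called. All 8 T and NK cell markers were below the filter, with Cd2, Gzmb, Klrd1, Prf1 and Cd3d at the floor on most arrays, and so were Krt7, Krt19 and Spp1 of bile duct cells and Vwf of endothelial cells.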

How the data were processed

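The authors deposited 1 linear intensity per probe set and array, made with MAS5 per the submitters' processing notes, whose version is not given in the sources used here. Array medians ran from 15.8 to 23.8. Lower values were set to 3.12 (percentile 20 of all values, reached by 17.4% to 23.9% of an array) before log2, which understates differences of dim probe sets. Probe sets stayed in if any group's geometric mean was 19.7 (the overall median) or more, 18048 of 31099 (58.0%). The 57 control probe sets of the array were removed.

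Group means (24) were fitted in limma 3.58.1 under R 4.3.3, using lmFit and trended eBayes with 48 residual degrees of freedom. P-values were adjusted by Benjamini-Hochberg per comparison and rest on the spread between arrays. The code was tested on simulated data. Having 3 arrays per group limits the precision. Groups came from the titles, whose D number, taken within each time, was the replicate block. Same-numbered arrays deviated together, with every correlation over 0.1, in 14 of the 16 comparisons and not with aflatoxin B1 (lowest -0.26 at 24 h and -0.29 at 72 h), so this pairing comes from the data.

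All member probe sets were named, with up to 4 called genes per list of the largest change, and for Aen, Phlda3 and Pidd1 the 3 genes of most like pattern (Bax has no probe set of its own). The members and lists were chosen with earlier results of these data known. Symbols came from the platform annotation and promoters from RefSeq. Alternatives were another floor, no floor, no filter, quantile normalization, no trend, the compound's own set alone, the replicate block, the arrays that stand apart left out, and each array left out in turn.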

Additional observations from a re-analysis of the deposited data

How the results depend on the processing

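Of the 480 recomputed values of the 32 called probe-set results, none changed sign and 73 no longer passed the test. The 8 results that passed under all 15 alternatives each were the 4 of Phlda3, Bbc3 at 72 h of aflatoxin B1 and of NNK, Aen 1383491_at at 72 h of aflatoxin B1 and Perp 1389177_at at 72 h of NNK. For aflatoxin B1 the alternatives include leaving out the arrays of high actin ratio. That kept replicate 2 alone at 24 h and replicate 1 alone at 72 h. Fitting only a compound's own set gave 1 member at 24 h and 3 at 72 h of aflatoxin B1 and 1 at 72 h of nifedipine. The NNK calls that such a fit changed are given above. The replicate block gave 4 members at 72 h of Wy-14643, 1 at 72 h of nifedipine, 1 for the change of the NNK effect between the times, 8 for aflatoxin B1 minus 2-nitrofluorene at 24 h, and 2 and 8 for NNK minus 2-nitrofluorene at 24 h and 72 h. It moved no other member count by over 1.5 times, and it was not run for the controls at 72 h minus 24 h because a block within each time cannot separate the times. Keeping all dim probe sets gave 0 for NNK minus 2-nitrofluorene at 24 h. Leaving out the D number 3 arrays gave 1 at 72 h of Wy-14643 and 5 for NNK minus 2-nitrofluorene at 72 h, and leaving out the arrays of high actin ratio gave 1 and 8 there. Leaving out single arrays gave 5 to 9 members at 24 h and 6 to 9 at 72 h of aflatoxin B1, 1 to 3 and 3 to 7 with NNK, and 0 to 5 at 72 h of Wy-14643. The overall number of called probe sets moved more: with the replicate block it was 1886 and 2601 with aflatoxin B1, against 601 and 886 without it, and 770 and 2346 with NNK, against 166 and 600. For the other changes the cause was not tested. Dim probe sets such as Pidd1 and the second Fas one limit what small differences can be seen.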

Other observations

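Genes outside the members were ranked by how closely their 16 log2 differences from control followed those of Phlda3, Aen and Pidd1, among 10171 genes and as a description, since the 16 differences share control arrays. For Phlda3 the 3 nearest were Spetex2l2 (r = 0.99), Klhl26 (0.97) and Zfp688, a zinc finger gene (0.97). Spetex2l2 was higher by 4.60 and 5.51 on the log2 scale at 24 h and 72 h of aflatoxin B1 and by 2.97 and 3.86 with NNK, and differed by 0.06 and 0.17 with 2-nitrofluorene. Nearest to Aen were Rrn3, a transcription factor of RNA polymerase I (0.98), Ankrd13d (0.98) and Btbd10 (0.98), of which Ankrd13d was higher by 3.49 and 4.18 with aflatoxin B1 and by 2.23 and 2.59 with NNK. Nearest to Pidd1 were Sulf2, a sulfatase of the cell surface (0.98), Jam3, a junctional adhesion molecule (0.97), and Mterf3, a mitochondrial transcription factor (0.97). Jam3 was higher by 2.32 and 2.30 with aflatoxin B1 and differed by 0.95 and 0.88 with NNK and by -0.15 and -0.57 with 2-nitrofluorene. These values were not tested here.

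Plk2, a polo-like kinase on the feedback and arrest list, was called outside the genotoxic compounds as well, at 72 h of Wy-14643 (1.28 ± 0.21, adjusted p = 5.32e-05) and of nifedipine (0.78 ± 0.21, adjusted p = 0.0304), beside 1.21 ± 0.21 and 1.42 ± 0.21 with aflatoxin B1. Xpc, a sensor of DNA lesions on the same list, was lower at 72 h of Wy-14643 (-0.63 ± 0.17, adjusted p = 0.0124).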
